A study of Mus musculus with 6 samples.

Results

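Immediate early response genes are the first genes that a cell transcribes after a signal reaches it. They need no new protein for their induction, since the factors that switch them on, among them SRF with its ETS partners and CREB, already sit on their promoters and are activated by kinases of the MAP kinase and calcium pathways. Most of their RNAs are short-lived, and many of their products are transcription factors (the FOS and JUN families, EGR, NR4A) or brakes on the same signal (the DUSP phosphatases, Sprouty, the ZFP36 proteins that destroy AU-rich mRNAs). In B cells they respond to the antigen receptor and to help from T cells, and cell isolation itself can also induce them.

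The set described here held 31 such genes, chosen by symbol, and all 31 had a row among the 23412 rows of the count table and passed the filter on low counts that left 18767 genes for testing. The RNA came from B220+, GL7+, Fas+ germinal centre B cells sorted from the spleen 10 days after immunization with sheep red blood cells. The DAF-TM mice were Cg1-cre(+/-);DAF-TM(fl/fl), with a DAF-TM transgene that the series design places at R26 and Cre from the Cg1-cre allele. The control mice were Cg1-cre(+/-), which the treatment notes write as DAF-Tg(+/+), so both groups carried the Cre allele. Cd55 encodes DAF, which sits in the membrane and shields its own cell from complement. The labels give no strain, age or number of mice per library, and p-values therefore measure only the spread between libraries, which may be technical.

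Each group had 3 labelled replicates, but DAF-TM replicate 3 held the same count as DAF-TM replicate 2 for every gene. That is less than sampling noise would give, and the pair entered as a single sample, DAF-TM library 2. The comparison therefore set 2 DAF-TM libraries, with 11280400 and 10684753 counts, against 3 control libraries with 7257339 to 12783965 counts. Cd55 had 7911 and 8585 counts in the DAF-TM libraries, against 172 to 405 in the controls. DAF-TM library 1 held both Xist (296 CPM) and Y-linked reads (289 CPM over 4 genes), whereas in each of the other 4 libraries either Xist or the Y-linked sum was at most 2.86 CPM. Bcl6, the master regulator of the germinal centre B cell lineage, was present in every library, at 214 and 238 CPM in the DAF-TM libraries and at 278 to 312 CPM in the controls. Unless another scale is named, levels are TMM-normalised CPM, read counts scaled to the size of their library.

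None of the 31 genes rose or fell in the DAF-TM cells at an edgeR adjusted p under 0.05, the threshold used throughout. Over all genes tested 77 changed (0.41%), with 70 higher (0.373%) and 7 lower (0.0373%), so a count of 0 among 31 genes is near that background. At an unadjusted p under 0.05 there were 3 of 31, Fos, Fosb and Ier2, all with positive values, against 5.74% of all tested genes (3.68% positive and 2.06% negative). DESeq2 also called 0 of the 31 and gave 0 with an unadjusted p under 0.05. It gave no adjusted p for Fosb, Fosl1, Egr3, Nr4a3, Ier3 and Spry2, which could therefore not be called. The median log2 fold change of the 31 genes, DAF-TM over control, was 0.08, beside 0.03 over all genes tested, and 20 of the values were positive and 11 negative. In sorted bulk cells a smaller share of expressing cells and less RNA in each cell cannot be told apart.

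**Figure D1:**
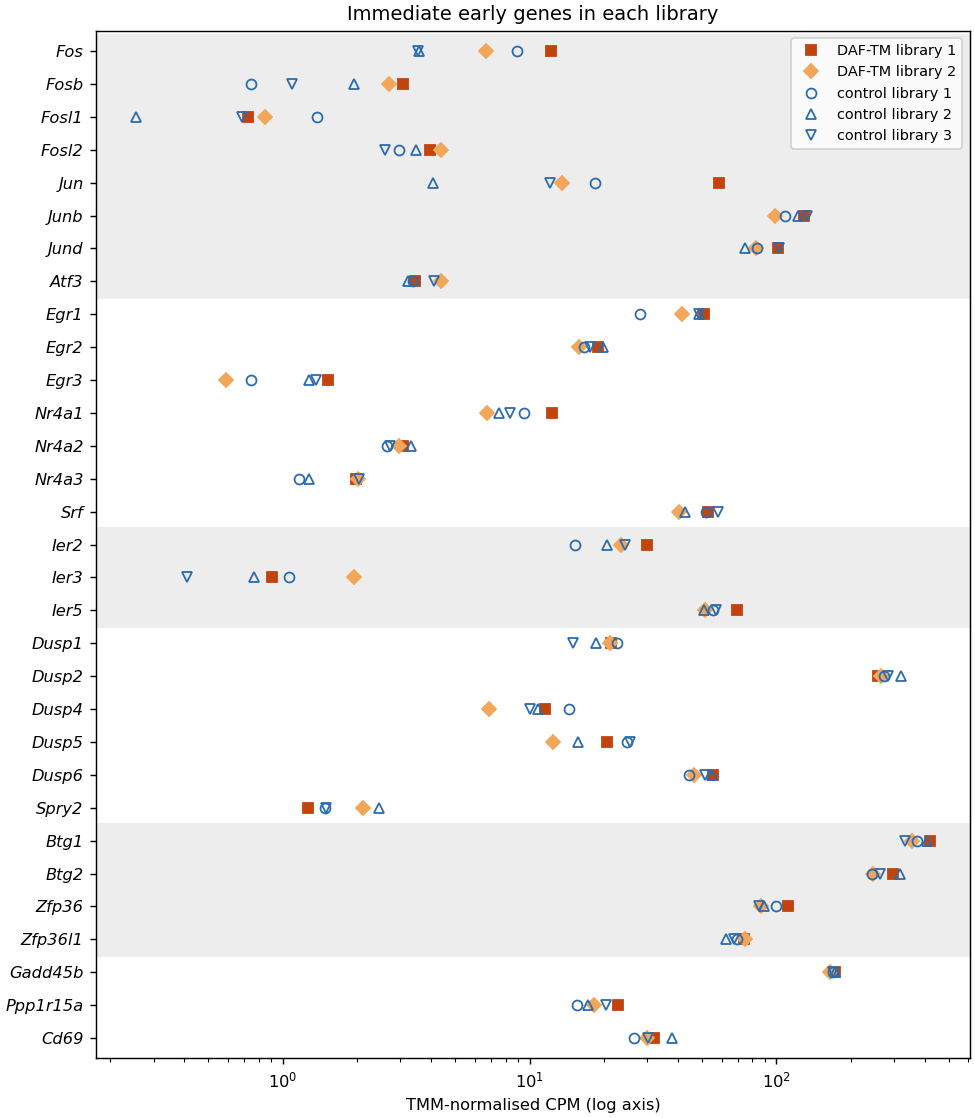
TMM-normalised CPM (log axis) of the 31 immediate early genes in each library, grouped by role in shaded bands; filled symbols are the 2 DAF-TM libraries and open symbols the 3 control libraries. For 27 of the 31 genes the DAF-TM and control symbols overlap, and Jun in DAF-TM library 1 lies far to the right of the other 4 libraries.

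For most members the data also limit how large a change could be. The 95% interval of the log2 fold change lay within a 2-fold change either way for 22 of the 31 genes and within a 1.5-fold change for 15. The widest intervals belonged to Jun, whose libraries disagreed, and to genes with few reads, such as Fosl1, Egr3, Ier3 and Spry2. The DAF-TM and control libraries failed to overlap for 4 genes (12.9%), with Fosb, Fosl2 and Zfp36l1 higher and Dusp2 lower in DAF-TM cells, while 20.3% of all genes tested had no overlap (11.3% higher and 9.01% lower).

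**Figure D2:**
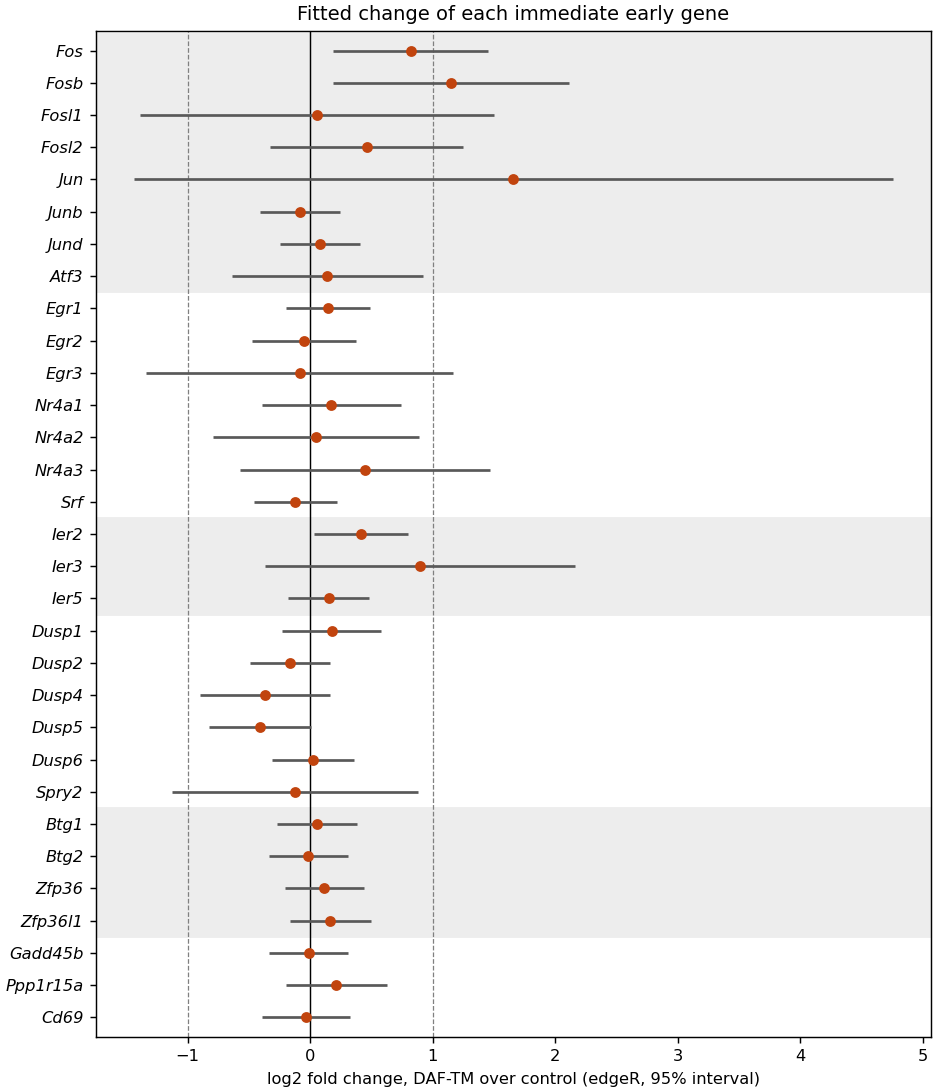
Fitted log2 fold change, DAF-TM over control, of each immediate early gene with its 95% interval from edgeR; dashed lines mark a 2-fold change either way. Fos, Fosb and Ier2 have intervals above 0 before adjustment, and the interval of Jun runs from -1.44 to 4.75.

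The levels of the members differed widely. Per kilobase of annotated exon, Dusp2 was the most abundant with a mean of 140 CPM per kb over the 5 libraries (139.6 before rounding), followed by Gadd45b at 107, Btg2 at 99.6, Btg1 at 71.6, Jund at 53.3 and Junb at 51.4. Dusp2 and Gadd45b did not overlap between any libraries, whereas the libraries of Gadd45b and Btg2 overlapped, as did those of Jund and Junb. The classical inducible factors stood far lower, with Egr1 at 9.67 CPM per kb, Jun at 6.69, Egr2 at 5.23, Fos at 2.97 and Nr4a1 at 2.54. The lowest were Fosb at 0.306, Nr4a3 at 0.284 and Egr3 at 0.249 (0.2495 before rounding). Exons of 9 of the 31 genes overlap an annotated gene on the opposite strand, over 1672 bases for Zfp36l1, 1163 for Fosl1, 877 for Jund, 547 for Dusp5 and 232 for Jun. Since the strand setting of the counting is not given, reads of those pairs cannot be told apart.

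Promoters are shown for 5 members: for Fos and Fosb, members of lowest p, for Jun, the member of widest spread, and for Nr4a1 and Egr2, which respond to the antigen receptor. Each stretch holds the 250 bases before the RefSeq start of the gene (GRCm38, the build of the count table), read 5′ to 3′ on the strand of the gene. Capitals mark the short cAMP response element TGACG, which CREB-type factors bind, on either strand, and in Egr2 also a serum response element (CArG box), the site of SRF. The Jun stretch held no exact match to any motif searched and has no capitals. They lie at chr12:85473640-85473889 on the plus strand for Fos, chr7:19310046-19310295 on the minus strand for Fosb, chr4:95052223-95052472 on the minus strand for Jun, chr15:101266596-101266845 on the plus strand for Nr4a1 and chr10:67537619-67537868 on the plus strand for Egr2, which has several annotated starts.
Fos: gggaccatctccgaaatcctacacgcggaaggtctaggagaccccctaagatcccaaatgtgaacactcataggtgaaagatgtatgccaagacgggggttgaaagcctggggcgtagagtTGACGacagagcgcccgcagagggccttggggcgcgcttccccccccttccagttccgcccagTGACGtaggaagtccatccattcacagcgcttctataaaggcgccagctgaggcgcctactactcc
Fosb: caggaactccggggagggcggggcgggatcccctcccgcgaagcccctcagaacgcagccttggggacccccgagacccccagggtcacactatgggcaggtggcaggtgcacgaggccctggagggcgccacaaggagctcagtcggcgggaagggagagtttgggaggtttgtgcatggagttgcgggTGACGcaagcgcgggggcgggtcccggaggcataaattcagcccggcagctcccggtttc
Jun: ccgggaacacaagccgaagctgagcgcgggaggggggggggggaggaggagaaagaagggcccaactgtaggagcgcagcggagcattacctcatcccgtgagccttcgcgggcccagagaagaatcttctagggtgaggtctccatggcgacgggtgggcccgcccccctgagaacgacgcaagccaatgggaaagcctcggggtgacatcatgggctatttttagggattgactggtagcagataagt
Nr4a1: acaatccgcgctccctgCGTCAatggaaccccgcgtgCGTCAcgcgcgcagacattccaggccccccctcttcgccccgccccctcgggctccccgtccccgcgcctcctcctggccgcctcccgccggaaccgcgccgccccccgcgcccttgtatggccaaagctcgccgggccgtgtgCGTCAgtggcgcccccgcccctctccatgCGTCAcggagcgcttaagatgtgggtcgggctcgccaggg
Egr2: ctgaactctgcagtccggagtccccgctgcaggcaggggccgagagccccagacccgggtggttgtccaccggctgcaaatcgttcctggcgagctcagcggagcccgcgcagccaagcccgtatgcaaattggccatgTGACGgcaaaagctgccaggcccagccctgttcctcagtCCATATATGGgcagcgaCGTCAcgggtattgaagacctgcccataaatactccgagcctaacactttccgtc

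Promoters were listed for 25 of the 31 genes, and those of Cd69, Dusp4, Egr1, Egr3, Fosl1 and Ier2 were not used here. In the window from 250 bases before to 50 after the start, TGACG on either strand was found for 15 of the 25 genes, including 4 copies each in Nr4a1, Nr4a2 and Nr4a3, and for 23% of all genes listed. The full cAMP response element TGACGTCA, which contains TGACG on both strands, was found for 3 (Btg2, Dusp1 and Ppp1r15a), against 2.03% of all genes. The CArG box was found for 4 (Dusp5, Egr2, Srf and Zfp36), against 1.81%. The AP-1 site TGANTCA was found for 1 (Zfp36l1), against 8.97%, and the EGR site GCGTGGGCG for 0 of 25, against 0.707%. These matches describe exact letters in a window. A window without one says nothing of inexact sites, which were not searched for, or of sites elsewhere.

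Fos and Fosb had the lowest p-values of the 31 members, while their relatives Fosl2 and Fosl1 ranked 8 and 31 of 31. FOS proteins pair with JUN proteins to form AP-1, a factor that binds near many activation genes. Fos stood at 12.2 and 6.67 CPM in the DAF-TM libraries, against 8.89, 3.56 and 3.54 CPM in the controls, from 136 and 79 reads against 84, 42 and 26. DAF-TM library 1 was the highest, but control library 1 lay above DAF-TM library 2, so the groups overlapped. Fos averaged 9.46 ± 3.95 CPM in DAF-TM cells and 5.33 ± 3.08 CPM in control cells (SD, n = 2 and 3). Its log2 fold change was 0.82 (SE 0.32, unadjusted p = 0.011, edgeR adjusted p = 0.620). Without DAF-TM library 1 the log2 value was 0.31, and without control library 1 it was 1.41 (edgeR adjusted p = 0.773 and 0.144).

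Fosb, a close relative of Fos, stood at 3.06 and 2.70 CPM in the DAF-TM libraries, against 0.740, 1.95 and 1.09 CPM in the controls. Both DAF-TM libraries lay above all controls, on 34 and 32 reads against 7, 23 and 8. The log2 fold change was 1.15 (SE 0.49, unadjusted p = 0.0193, edgeR adjusted p = 0.754), and it stayed between 0.88 and 1.66 when any single library was left out. Fosl2 (FRA-2) had the same order, at 3.96 and 4.39 CPM in the DAF-TM libraries and 2.96, 3.48 and 2.59 CPM in the controls, with a log2 fold change of 0.46 (SE 0.40, edgeR adjusted p = 0.949). Fosl1 (FRA-1) was near the limit of counting, with 8 and 10 reads in the DAF-TM libraries against 13, 3 and 5 in the controls, and no order between the groups.

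Jun, the founding partner of Fos, was the member that varied most. It stood at 58.5 and 13.5 CPM in the DAF-TM libraries, against 18.4, 4.07 and 12.1 CPM in the controls, from 650 and 160 reads against 174, 48 and 89. DAF-TM library 1 alone was high: it held 4.34 times the level of DAF-TM library 2, which lay within the range of the controls. The log2 fold change was 1.66 with an SE of 1.02 (edgeR adjusted p = 0.945). It was 0.24 without DAF-TM library 1 and 2.36 without DAF-TM library 2 (edgeR adjusted p = 0.936 and 1). Jun was called in limma-voom without robust estimation (adjusted p = 0.0404), a setting added after the data were seen. Jun was also called in the edgeR fit with the replicate number as a block (adjusted p = 1.06e-08), though no label pairs these libraries. It was called in no other setting, and adjusted p was 0.841 or higher in those.

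The highest library of Jun held 14.4 times the level of its lowest (58.5 against 4.07 CPM), where the median ratio was 1.47 over the 31 members (1.465 before rounding) and 1.62 over all genes tested. Of 9045 tested genes with a mean of at least 10 CPM, 10 had a wider ratio than Jun: Xist and the 4 Y-linked genes, Cd55, the heat shock gene Hspa1b, and S100a9, S100a8 and Chi3l3, which are abundant in neutrophils. Hspa1b and Hspa1a encode the inducible Hsp70 chaperone, and their near-identical sequences make the split of reads between them uncertain. Hspa1b stood at 33.5 and 3.38 CPM in the DAF-TM libraries, against 16.3, 1.19 and 2.45 CPM in the controls, and Hspa1a at 7.21 and 0.0844 CPM against 1.90, 0.763 and 0.681 CPM. DAF-TM library 1 was thus the highest and control library 1 the second highest for Jun, Fos, Hspa1b and Hspa1a alike. Nr4a1 and Zfp36 shared this order of the top libraries, and the other members did not. Control library 1 was the lowest of the 5 for Fosb, Ier2, Egr1, Nr4a2, Nr4a3, Dusp6, Btg2, Cd69 and Ppp1r15a. None of the 11 tested heat shock genes of a list linked to cell handling was called (Hspa8 at a log2 value of 0.40 and Hsph1 at 0.36 had the lowest p, edgeR adjusted p = 0.716 and 0.821, and Hsp90ab1 at 0.29 came next at 0.910). The list summed to 4239 and 3409 CPM in the DAF-TM libraries and to 3661, 3005 and 3101 CPM in the controls. Its part in the level of Jun was not tested.

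**Figure D3:**
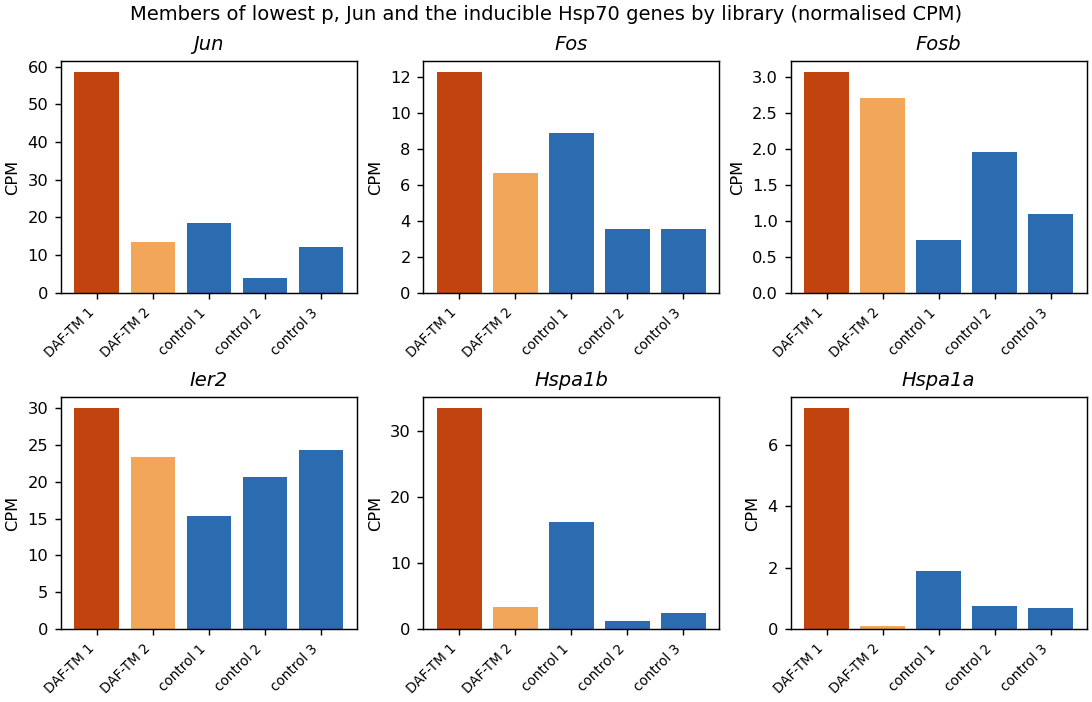
Normalised CPM of Jun, Fos, Fosb, Ier2, Hspa1b and Hspa1a in each library, with the 2 DAF-TM libraries at the left of each panel and the 3 control libraries at the right; each bar is 1 library. Jun reaches 58.5 CPM in DAF-TM library 1, and the same library is the highest for all 6 genes.

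**Figure D4:**
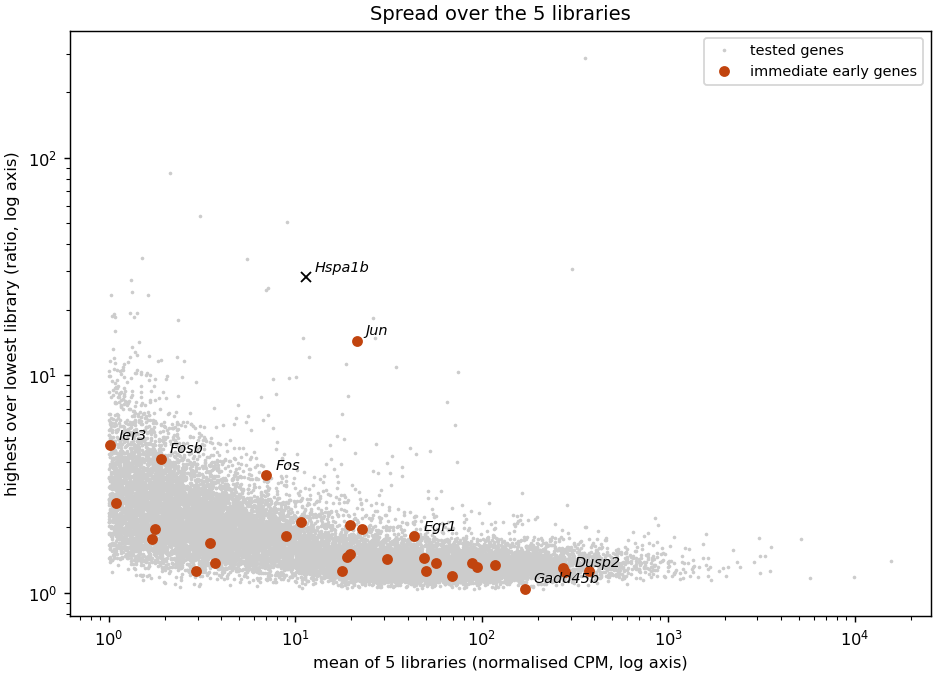
Ratio of the highest to the lowest of the 5 libraries against the mean level (both axes log, genes with a mean of at least 1 CPM), for tested genes in grey and immediate early genes in orange, with Hspa1b as a cross; genes at 0 in a library have no ratio and are not drawn. Jun stands at 14.4, while Gadd45b has a ratio of 1.04.

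RNA of marker genes of other cell types was also present in these libraries. Whether the sorted B cells made part of it was not tested. Of 10 natural killer cell markers 7 rose (Gzma, Nkg7, Klrd1, Klrk1, Klrb1c, Ncr1 and Il2rb, with log2 values of 0.81 to 2.28), with summed levels of 129 and 79.2 CPM in the DAF-TM libraries and 33.2 to 52.3 CPM in the controls. Of 12 macrophage or monocyte markers 4 rose (Vcam1, Slc40a1, Csf1r and C1qb, 1.12 to 2.06), with sums of 176 and 115 against 93.2 to 153 CPM. Of 12 T cell markers 2 rose (Tcf7 at 1.37 and Cd3d at 1.52, with Il7r next at 1.22 and an edgeR adjusted p of 0.102), with sums of 278 and 290 against 283 to 313 CPM (282.65 at the lowest). That sum was mostly Lck, at 213 and 223 CPM in the DAF-TM libraries and 249.1 to 285 CPM in the controls. The other 11 T cell markers all had positive log2 values, the median of the 12 was 0.84, and for 9 of the 12 both DAF-TM libraries lay above all controls (75%). The same held for 8 of the 10 natural killer cell markers and 9 of the 12 macrophage or monocyte markers, against 11.3% of all genes tested. That share is not matched for level. In DAF-TM library 2, 21.9% of genes of at least 10 CPM lay above the control mean, against 54.2% of all genes tested. Of the naive or follicular B cell markers 4 of 8 rose (among them Ccr7, Klf2 and S1pr1, 1.25 to 1.79), with sums of 1076 and 757 CPM in the DAF-TM libraries and 725 to 992 CPM in the controls. The plasma cell list had 1 of 7 higher, Prdm1 (0.81), ahead of Irf4 (0.48) and Tnfrsf17 (0.54), and the dendritic cell list 1 of 8, Siglech (1.69), ahead of Itgax (0.74) and Zbtb46 (0.54). The neutrophil list had 0 of 7, with Csf3r (0.80), Cxcr2 (0.85) and S100a8 (-1.76) of lowest p. Plasma cell sums were 4140.1 and 3093 CPM against 3135 to 5146, dendritic cell sums 89.8 and 80.3 against 71.8 to 79.8, and neutrophil sums 22.8 and 71.1 against 54.1 to 149.97. No marker with a row was at 0 in all libraries. Such cells use AP-1 genes too, and their part in the values of the members was not tested.

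The remaining AP-1 members overlapped between the groups. Junb, a JUN protein with its own targets in lymphocytes, stood at 129.8 and 98.6 CPM in the DAF-TM libraries, against 108 to 133 CPM in the controls, and Jund, the most constitutive JUN protein, at 101 and 82.3 against 74.6 to 102 CPM. Their log2 fold changes of -0.08 and 0.08 had 95% intervals of -0.41 to 0.25 and -0.25 to 0.41. Junb stood at 0.03 on the log2 scale under cyclic loess normalisation. Atf3, a stress-induced relative, stood at 3.42 and 4.39 against 3.22 to 4.09 CPM. A list of 11 AP-1 partners held 0 called genes. Its members of lowest p were the antioxidant regulator Nfe2l2 (log2 value 0.27), Atf2 (-0.23) and Batf2 (0.79), each at an edgeR adjusted p of 0.945, and the 11 had a median of 0.04.

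The EGR factors, zinc finger proteins that report antigen receptor signalling, overlapped between the groups, and none was called. Egr1 stood at 50.8 and 41.3 CPM in the DAF-TM libraries, against 27.9, 48.5 and 48.4 CPM in the controls. Control library 1 was the low one, and DAF-TM library 2 lay between it and the other controls. The log2 fold change of Egr1 was 0.15 (95% interval -0.20 to 0.49, edgeR adjusted p = 0.953). Egr2 stood at 19.0 and 15.9 CPM in the DAF-TM libraries, against 16.6, 19.8 and 17.6 CPM in the controls, and its log2 fold change of -0.05 had an interval of -0.47 to 0.37. That value was 0.02 with upper-quartile factors. Egr3, with 17 and 7 reads in the DAF-TM libraries against 7, 15 and 10 in the controls, was too sparse to show a change of less than about 2-fold, since its interval ran from -1.34 to 1.17. A larger change of Egr3 could also go uncalled at the adjusted threshold.

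The NR4A genes encode orphan nuclear receptors, of which Nr4a1 is widely used as a readout of antigen receptor signals. Nr4a1 stood at 12.3 and 6.75 CPM in the DAF-TM libraries, against 9.52, 7.55 and 8.31 CPM in the controls. The DAF-TM libraries were the highest and the lowest of the 5, and the log2 fold change was 0.17 (95% interval -0.40 to 0.74). Nr4a2 stood at 3.06 and 2.95 CPM against 2.64 to 3.31, and Nr4a3 at 1.98 and 2.03 CPM against 1.16 to 2.04. With cyclic loess normalisation the log2 values of Nr4a1 and Nr4a2 were -0.02 and -0.15. Srf, the factor that binds the CArG box, stood at 53.0 and 40.2 CPM in the DAF-TM libraries, against 42.6 to 58.0 CPM in the controls (log2 fold change -0.12, SE 0.17).

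The IER genes are short response genes named for their early induction. Ier2, a nuclear protein, stood at 29.99 and 23.4 CPM in the DAF-TM libraries, against 15.3, 20.6 and 24.2 CPM in the controls. DAF-TM library 1 was the highest of the 5, and control library 3 lay above DAF-TM library 2. The log2 fold change was 0.42 (SE 0.20, unadjusted p = 0.03515, edgeR adjusted p = 0.829), and it was 0.22 without DAF-TM library 1. Ier5, which acts on the heat shock factor HSF1, stood at 69.2 and 51.2 CPM in the DAF-TM libraries, against 50.7 to 56.9 CPM in the controls. Ier3, a regulator of survival, had 10 and 23 reads against 3 to 10.

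Of the 6 feedback genes of the MAP kinases none was called, 4 had negative log2 values and their median was -0.14. Dusp2, a nuclear phosphatase of the kinases that is prominent in lymphocytes, stood at 258 and 264 CPM in the DAF-TM libraries, against 272, 320.0 and 283 CPM in the controls. Both DAF-TM libraries lay below all controls, by a small margin (log2 fold change -0.16, SE 0.17, edgeR adjusted p = 0.949). With cyclic loess the log2 value of Dusp2 was -0.01. Dusp5, a nuclear phosphatase of ERK, stood at 20.5 and 12.4 CPM, against 24.8, 15.7 and 25.5 CPM, with a log2 fold change of -0.41 (SE 0.21, edgeR adjusted p = 0.876). Dusp4 stood at 11.5 and 6.84 CPM in the DAF-TM libraries, against 10.1 to 14.5 CPM in the controls. For Dusp4 and Dusp5 DAF-TM library 2 was the lowest of the 5 libraries, while library 1 lay within the controls. Dusp6, the cytoplasmic ERK phosphatase, stood at 55.6 and 46.2 CPM against 44.3 to 54.6, and Dusp1, which acts on the stress kinases, at 21.3 and 21.2 CPM against 14.98 to 22.6. The Ras-ERK inhibitor Spry2 had 14 and 25 reads in the DAF-TM libraries, against 11 to 29 in the controls. The log2 value of Dusp6, 0.02, was -0.0041 with RLE size factors and -0.0042 with DESeq2.

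None of the 4 genes of growth arrest and mRNA decay was called, and their median log2 value was 0.09. Btg1 and Btg2, which restrain proliferation and recruit the deadenylase that shortens mRNA tails, stood at 419 and 355 CPM against 333 to 409 CPM, and at 297 and 246 CPM against 243 to 316 CPM. Zfp36 (tristetraprolin) stood at 112 and 86.4 CPM in the DAF-TM libraries and at 85.3 to 99.8 CPM in the controls. Zfp36l1, its relative, stood at 74.1 and 74.3 CPM, against 69.2, 62.4 and 67.0 CPM. Both DAF-TM libraries of Zfp36l1 lay above all controls, yet the log2 fold change was 0.17 (SE 0.17, edgeR adjusted p = 0.949). The sign of Btg1 and Btg2 was not stable, with log2 values of 0.06 for Btg1 (-0.02 with the replicate block) and -0.01 for Btg2 (0.06 with upper-quartile factors and 0.14 with cyclic loess).

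Gadd45b, a stress and NF-kB target that curbs cell death, was the steadiest member, at 172 and 165 CPM in the DAF-TM libraries and 169, 172 and 169 CPM in the controls, with a 95% interval of -0.34 to 0.31 for the log2 fold change. Ppp1r15a, which reverses the translational arrest of the stress response, stood at 22.8 and 18.2 CPM against 15.55 to 20.4 CPM. Cd69, the early activation antigen that holds lymphocytes in tissue, stood at 31.8 and 29.9 CPM in the DAF-TM libraries, against 26.4 to 37.7 CPM in the controls. The log2 values of Gadd45b and Cd69, -0.01 and -0.03, were positive with upper-quartile factors (0.06 and 0.05) and with cyclic loess (0.12 and 0.01), and that of Atf3, 0.14, was -0.08 with cyclic loess.

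The DAF-TM libraries differed in how the members lay against the controls. In DAF-TM library 1, 26 of the 31 genes lay above the control mean on the log2(CPM + 0.5) scale, with a median difference of 0.18, while 49.8% of all genes tested did. In DAF-TM library 2 it was 15 of 31, with a median difference of -0.04, against 54.2% of all genes. Among the 20 members with a mean of at least 10 CPM, 17 lay above the control mean in library 1, beside 49.6% of all tested genes at that level, and 6 in library 2, beside 21.9%. Library 1 was the highest of the 5 libraries for 12 members (17.9% of all genes tested) and library 2 for 4 (28.9%). The counts describe single libraries and carry no test. In both DAF-TM libraries 13 members lay above the control mean (30% of all genes tested did) and 3 below it (Dusp2, Dusp4 and Dusp5, where 26% of all genes did), and the other 15 were split.

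**Figure D5:**
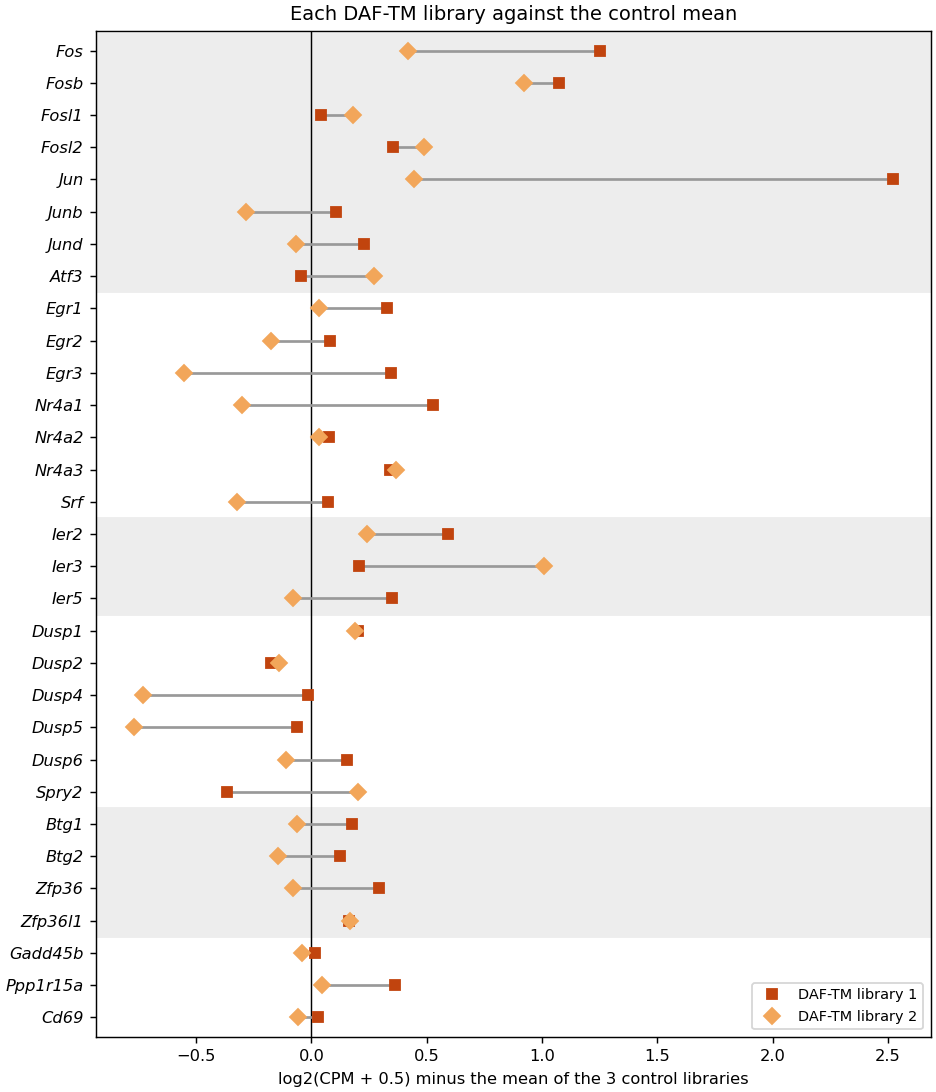
Difference of each DAF-TM library from the mean of the 3 control libraries on the log2(CPM + 0.5) scale, for each immediate early gene; squares are DAF-TM library 1 and diamonds DAF-TM library 2. In library 1, 26 of 31 genes lie above 0 and in library 2, 15 of 31.

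Genes around the set were read the same way. Of 27 upstream kinases and promoter-bound factors none was called, and none had an unadjusted p under 0.05. Their median was -0.03, and those of lowest p were Crtc3 (log2 value 0.36), Ets1 (-0.22) and Crtc2 (0.21), at edgeR adjusted p of 0.944, 0.945 and 0.947. Of 46 other primary response genes 1 rose and none fell. It was Klf2, a factor of quiescent lymphocytes that also stands in the naive or follicular B cell list, at 63.1 and 35.6 CPM in the DAF-TM libraries against 16.1, 23.5 and 16.6 CPM in the controls (log2 fold change 1.39, SE 0.18, edgeR adjusted p = 4.41e-10), a call lost without DAF-TM library 1 (0.91, edgeR adjusted p = 0.246). The next in p were Irf1 (0.60), Gadd45g (0.83) and Ccl4 (1.07), with edgeR adjusted p of 0.670, 0.774 and 0.833. Irf1, an interferon-induced factor, was high in DAF-TM library 1 alone, at 156 and 65.9 CPM in the DAF-TM libraries against 71.8 to 73.6 CPM in the controls. Myc, which marks positively selected germinal centre cells, stood at 39.1 and 31.1 CPM against 25.9 to 33.9 CPM (log2 fold change 0.26, edgeR adjusted p = 0.945). The 46 had a median of 0.10.

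Germinal centre cells receive antigen receptor and T cell signals in the light zone, so its markers were set beside the early genes. None of the 12 light zone markers was called, 10 had negative log2 values and the median was -0.23. Cd86, a costimulatory ligand, stood at 297 and 272 CPM in the DAF-TM libraries, against 356, 547 and 325 CPM in the controls (log2 fold change -0.52, SE 0.17, edgeR adjusted p = 0.261). Cd83 stood at 805 and 826 CPM against 903, 1227 and 902 CPM (-0.31, SE 0.17, edgeR adjusted p = 0.888). Bcl2a1d and Rel, the others of lowest p, had log2 values of -0.68 and -0.39 (edgeR adjusted p = 0.374 and 0.774). Both DAF-TM libraries lay below all controls for 5 of the 12 (Cd86, Cd83, Bcl2a1d, Rel and Slamf1) and above them for 1 (Bcl2a1a, log2 value 0.82, edgeR adjusted p = 0.945), against 9.01% below and 11.3% above over all genes tested. The 8 dark zone markers had a median of -0.18 and none was called, with Ccnb1 (-0.37), Cxcr4 (-0.34) and Ccnb2 (-0.23) of lowest p. Of 11 germinal centre B cell markers none was called, all 11 log2 values were negative and the median was -0.14, with Bcl6 (-0.37) and Fas (-0.27) among those of lowest p. Both DAF-TM libraries lay below all controls for 4 of 8 dark zone markers (50%) and 5 of 11 germinal centre B cell markers (45.5%). In neither list did they lie above all controls for any marker. These lists were not matched for level with the genes tested. Among genes of at least 10 CPM, DAF-TM library 2 lay above the control mean for 21.9%, against 54.2% of all genes tested.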

How the data were processed

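RNA of 6 labelled samples was analysed. Per the labels' protocols, cDNA was made with SMART-Seq v4 from 10 ng RNA each by oligo-dT priming, and 100 nt reads were sequenced from one end. The submitters' processing notes name bcl2fastq, HISAT2 and featureCounts without versions, and per the file headers reads were aligned to mm10 (GRCm38). Annotation and strand setting are not stated there. The deposited values are raw counts for each gene symbol, with no normalization by the authors.

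Differences were fitted with edgeR 4.0.16 under R 4.3.3 (limma 3.58.1 as an alternative). TMM scaling and filterByExpr preceded a robust glmQLFit and a two-sided glmQLFTest, Benjamini-Hochberg adjusted over 18767 genes. The fit had 3 residual degrees of freedom, and most of each gene's spread was drawn from other genes (median prior degrees of freedom 1153). Intervals follow from the same test and cover no error of the normalisation. Alternatives included DESeq2 1.42.0. Exon lengths and overlaps came from GENCODE M21 and promoters from RefSeq, both GRCm38. Values in every library were given for members called, with an unadjusted p under 0.05, without overlap between groups, or best known (Fos, Jun, Egr1, Egr2, Egr3 and Nr4a1), and from each other list the called genes and the 3 of lowest p were named, except for genes that are not reported here. Hspa1a, Hspa1b, Myc, Cd83, Ccl4, Fosl1, Dusp5, Gadd45b, Lck, Slamf1 and Bcl2a1a were named or detailed beyond this rule after their values were seen. The members and lists were chosen with earlier results of these data known.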

Additional observations from a re-analysis of the deposited data

How the results depend on the processing

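No member was called with RLE or upper-quartile factors, cyclic loess, either filter, DESeq2, robust limma-voom or with any single library left out. The exceptions were limma-voom without robust estimation (added after the data were seen) and the replicate block, with 1 member called higher in each, Jun. DESeq2 gave no adjusted p for Fosb, Fosl1, Egr3, Nr4a3, Ier3 and Spry2. Whether the replicate number pairs the libraries is not known: no label ties the numbers to a shared litter or day, and only 2 numbers are shared, which leaves too few pairs to check. Among all genes tested, 77 were called, against 39 with upper-quartile factors, 23 with cyclic loess, 32 with DESeq2, 49 with limma-voom, 51 without its robust estimation and 61 with the replicate block. Leaving out 1 library gave 14 (without DAF-TM library 1) to 118 (without DAF-TM library 2), with 43 and 44 without control libraries 1 and 3. The median log2 fold change of the members, 0.08, was 0.14 with upper-quartile factors and 0.14 with cyclic loess, where that of all genes, 0.03, was 0.10 and 0.0009. It ran from -0.047 without DAF-TM library 1 to 0.17 without DAF-TM library 2. Among the other primary response genes, 1 was called, with 0 to 2 when a library was left out. Signs turned, all without a call, for Junb (0.025), Nr4a1 (-0.016), Nr4a2 (-0.15), Btg2 (0.14), Atf3 (-0.082), Cd69 (0.013) and Gadd45b (0.12) with cyclic loess. They also turned for Egr2 (0.022), Btg2 (0.057), Cd69 (0.045) and Gadd45b (0.061) with upper-quartile factors, for Dusp6 with RLE (-0.0041) and DESeq2 (-0.0042), and for Btg1 with the replicate block (-0.019). Leaving out 1 library turned the sign of 18 members in at least 1 fit, with log2 ranges of Atf3 -0.048 to 0.30, Btg1 -0.073 to 0.17, Btg2 -0.16 to 0.12, Cd69 -0.14 to 0.12, Dusp6 -0.12 to 0.15, Egr1 -0.072 to 0.29, Egr2 -0.19 to 0.074, Egr3 -0.92 to 0.45, Fosl1 -0.064 to 0.16, Gadd45b -0.047 to 0.015, Ier5 -0.087 to 0.35, Junb -0.30 to 0.10, Jund -0.082 to 0.23, Nr4a1 -0.33 to 0.55, Nr4a2 -0.012 to 0.16, Spry2 -0.55 to 0.19, Srf -0.34 to 0.065 and Zfp36 -0.088 to 0.29. Fosl1 and Ier3 passed the filter in 3 and 4 of these 5 fits. The cause was not tested. With a pseudocount of 2 CPM, the counts of members above the control mean were within 1.5 times of those reported for both DAF-TM libraries. With 2 libraries against 3 and few reads for Fosl1, Egr3, Ier3 and Spry2, changes under about 2-fold were not detectable for these. Larger changes could also go uncalled: Fosb, 2.22-fold higher, had an edgeR adjusted p of 0.754.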
